A study of Homo sapiens with 8 samples.

Results

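HSPA6, HSPA1A and HSPA1B encode the stress-inducible HSP70 chaperones of the cytosol and nucleus, and BAG3 encodes a cochaperone that binds them. Their transcripts were followed in THP-1, a human line of monocytic leukaemia, after 5 h with an inhibitor of p21-activated kinases or with solvent. The probes were chosen by annotation: every probe of the array whose platform gene symbol is HSPA6, HSPA1A, HSPA1B or BAG3. This gave 4 of 14884 named genes and 12 of 16098 probes with 1 gene symbol, among 53617 probes in the table. HSPA6 and BAG3 had 1 probe each, and HSPA1A and HSPA1B had 5 each. 3 of the HSPA1A probes (17026318, 17027994 and 17030820) held identical values in every array, so the 12 probes carried 10 distinct profiles.

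The groups were IPA-3 at 6 µg/mL (2 arrays), FRAX-597 at 2 µg/mL (2 arrays) and an equal volume of DMSO (4 arrays). All were THP-1 cells from ATCC in RPMI with 10% FCS, with no genetic change named in the labels. IPA-3 is an allosteric inhibitor of the kinases, and FRAX-597 competes with ATP. The labels do not say whether arrays of a group came from separate cultures, and the p-values rest on the spread between arrays alone, part of which may be technical. Arrays have no read depth, and their number limits the precision.

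Under protein-damaging stress, unfolded proteins draw HSP70 and HSP90 away from the transcription factor HSF1, which then forms trimers and binds heat shock elements, inverted repeats of the unit nGAAn, in the promoters of chaperone genes. HSPA1A and HSPA1B encode almost the same protein and are present in many unstressed cells, leukaemia lines among them. HSPA6 is known for low expression without stress and strong induction under it. BAG3, itself a target of HSF1, releases nucleotide from HSP70 and passes clients on to selective autophagy.

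The 250 bases upstream of the start of HSPA6, HSPA1A and HSPA1B are shown because all 3 genes are inducible, while the upstream sequence of HSPA6 differs from those of HSPA1A and HSPA1B, which are close copies. The sequences are from RefSeq on GRCh38.p14, plus strand, 5′ to 3′, at chr1:161524290-161524539 for HSPA6, chr6:31815293-31815542 for HSPA1A and chr6:31827488-31827737 for HSPA1B. All 4 genes were matched by symbol. Capitals mark the letters GAANNTTC or TTCNNGAA, 2 inverted units of a heat shock element.
HSPA6: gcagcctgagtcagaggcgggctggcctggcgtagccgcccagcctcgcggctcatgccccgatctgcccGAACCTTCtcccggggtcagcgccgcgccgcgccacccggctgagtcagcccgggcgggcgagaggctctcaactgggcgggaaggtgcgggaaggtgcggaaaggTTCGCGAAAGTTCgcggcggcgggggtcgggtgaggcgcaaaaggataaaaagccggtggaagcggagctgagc
HSPA1A: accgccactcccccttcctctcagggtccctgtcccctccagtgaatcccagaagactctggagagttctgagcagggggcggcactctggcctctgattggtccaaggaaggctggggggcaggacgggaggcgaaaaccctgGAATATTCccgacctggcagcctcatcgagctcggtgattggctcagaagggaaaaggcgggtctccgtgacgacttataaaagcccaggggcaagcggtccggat
HSPA1B: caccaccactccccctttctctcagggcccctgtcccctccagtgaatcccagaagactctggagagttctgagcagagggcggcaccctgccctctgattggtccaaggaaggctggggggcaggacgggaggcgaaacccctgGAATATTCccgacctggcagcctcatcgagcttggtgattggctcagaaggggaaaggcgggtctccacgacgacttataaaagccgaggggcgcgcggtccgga

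HSPA6 held 3 such matches, and 2 of them overlapped between 74 and 62 bases before the start to give 3 alternating units in a row. HSPA1A and HSPA1B held 1 match each, the same 8 letters GAATATTC, at 106 to 99 bases before the start in HSPA1A and at 105 to 98 in HSPA1B. The window of BAG3 held no match, and is not printed. Either motif, each being its own reverse complement, was in 11.6% of 35116 windows of this length, with GAANNTTC in 5.78% and TTCNNGAA in 6.62%. The run of 3 alternating units was in 0.441%. HSPA1A and HSPA1B also held CCAAT, read as ATTGG on the strand shown, and TATAAA, found on either strand in 32% and 10.7% of windows, whereas HSPA6 and BAG3 held neither. The windows of HSPA1A and HSPA1B were identical in 235 of 251 aligned columns (93.6%), against 48.9% for HSPA6 and HSPA1A. A match here is a match of letters and no measurement of binding.

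The 8 arrays lay on 2 scales. Medians over all probes were 5.51 to 5.55 in both IPA-3 arrays, DMSO 1 and DMSO 2, and 6.00 to 6.05 in both FRAX-597 arrays, DMSO 3 and DMSO 4. Correlations over all probes were 0.986 to 0.992 within the first 4 arrays, 0.974 to 0.990 within the second 4, and at most 0.956 between them. Named probes were shifted by a median of 0.48 on the log2 scale between the pairs of DMSO arrays. Each compound was therefore set against its own DMSO pair, and compound and array set cannot be told apart where the compounds are compared. Of the measured monocytic markers, 6 of 10 had a DMSO mean above the upper quartile of named probes, against 0 of 7 for T cells, 0 of 4 for B cells, 0 of 3 for erythroid cells, 0 of 3 for fibroblasts and 1 of 7 for epithelial cells. No marker list had a gene past the threshold with either compound.

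All 12 probes were higher in both IPA-3 arrays than in both of their DMSO arrays, by 2.80-fold for HSPA6, 1.50-fold to 1.69-fold for HSPA1A and HSPA1B, and 1.43-fold for BAG3. With FRAX-597 the 10 probes of HSPA1A and HSPA1B were lower by 1.78-fold to 1.89-fold, BAG3 was lower by 1.26-fold, and HSPA6 overlapped its DMSO arrays. None of these changes passed an adjusted p under 0.05 in limma, with Benjamini-Hochberg adjustment over all 16098 named probes. Of all named probes, 19.9% were higher with IPA-3 with no overlap, and 17.6% were lower with FRAX-597 with no overlap. In RNA from whole cultures, more RNA per cell and more cells that carry it cannot be told apart.

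**Figure D1:**
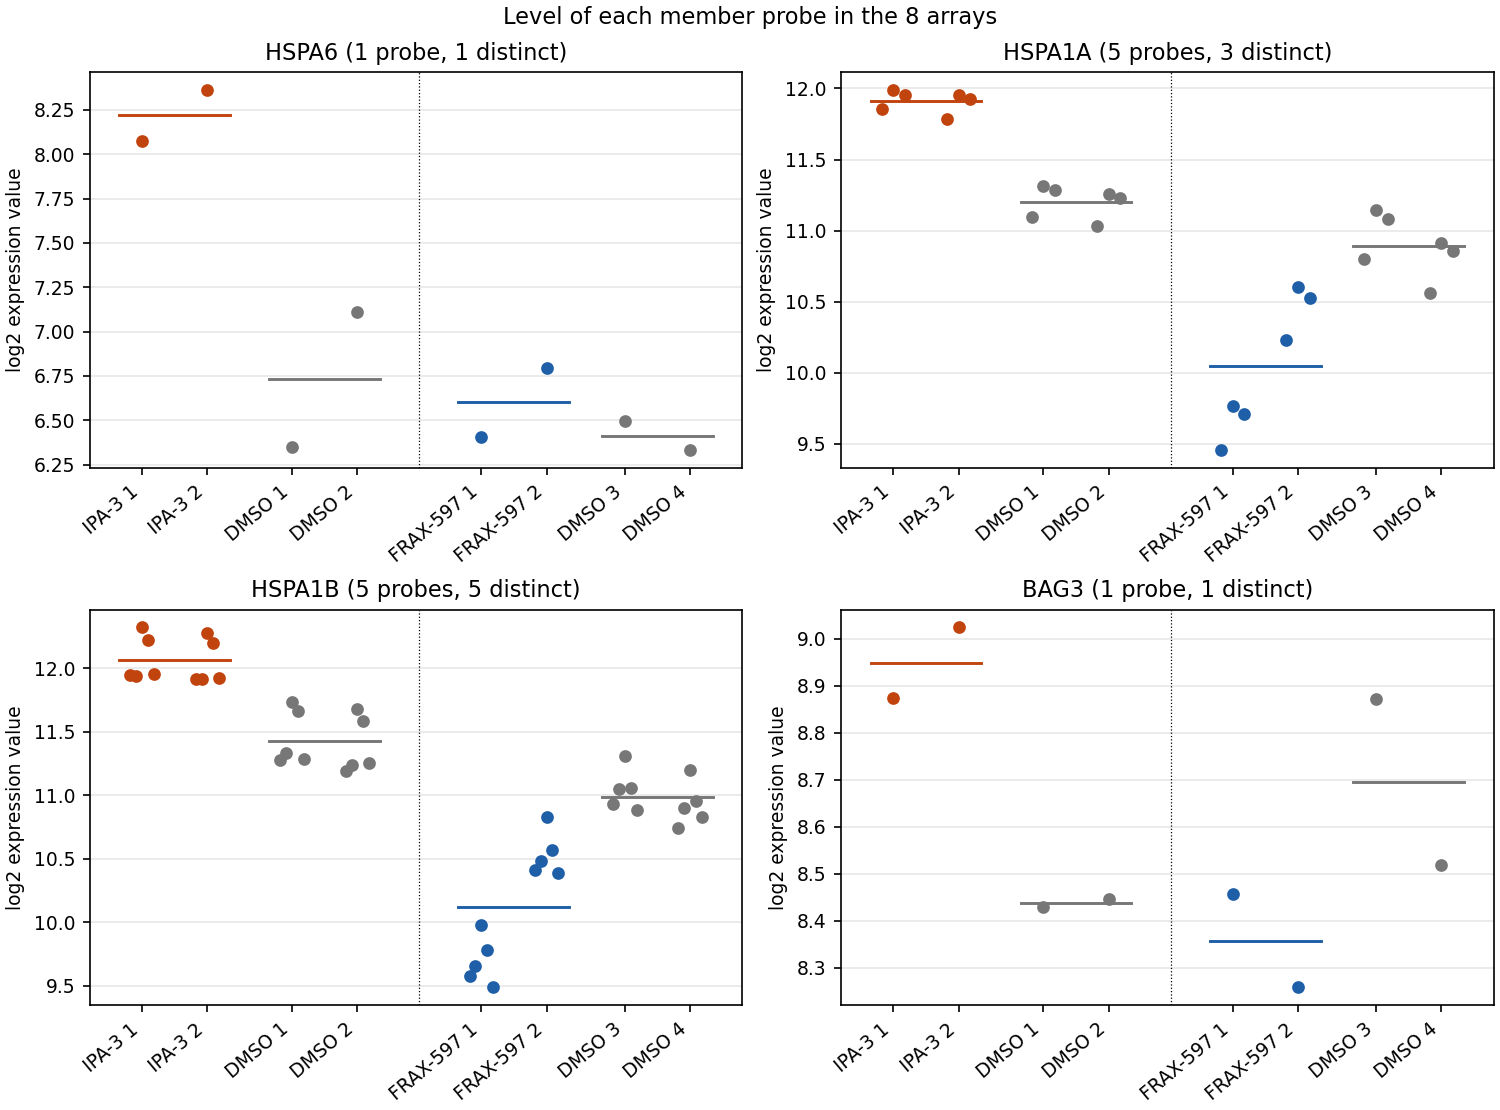
Log2 expression value (y axis, a separate scale in each panel) of each distinct probe of HSPA6, HSPA1A, HSPA1B and BAG3 in the 8 arrays (x axis). Points are probes, horizontal lines are means of a group over its probes and arrays, and the dotted line separates the array sets. The IPA-3 points lie above those of DMSO 1 and 2 in every panel, and FRAX-597 1 has the lowest HSPA1A and HSPA1B values.

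HSPA6, the HSP70 gene known for near silence without stress, had log2 values of 8.08 and 8.36 in the IPA-3 arrays, against 6.35 and 7.11 in DMSO 1 and 2. Both IPA-3 arrays were above both DMSO arrays, by between 0.965 and 2.01 over the 4 array pairs. The means were 8.22 ± 0.20 with IPA-3 and 6.73 ± 0.54 with DMSO (SD, n = 2 each). The log2 change was 1.49 (SE 0.26, 95% confidence interval 0.89 to 2.09, limma adjusted p = 0.257). It ranked 11 from the highest of 16098 changes. The DMSO arrays themselves differed by 0.76, a gap that 0.329% of named probes reached in that pair, where the median gap was 0.0981. DMSO 2 was the higher one and lay above the upper quartile of its array, 7.05, as did both IPA-3 arrays. Without DMSO 2 the change was 1.87, and without DMSO 1 it was 1.11.

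HSPA6 had log2 values of 6.41 and 6.79 in the FRAX-597 arrays, against 6.49 and 6.33 in DMSO 3 and 4. These groups overlapped, since FRAX-597 1 lay between the DMSO arrays. The means were 6.60 ± 0.27 with FRAX-597 and 6.41 ± 0.11 with DMSO (SD, n = 2 each). The log2 change was 0.19 (SE 0.26, 95% confidence interval -0.41 to 0.79, limma adjusted p = 0.980). Its upper bound of 0.79 lay under the IPA-3 estimate of 1.49. The FRAX-597 change minus the IPA-3 change was -1.30 (95% confidence interval -2.15 to -0.45, limma adjusted p = 0.602), which did not pass the threshold.

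HSPA7, annotated as a pseudogene closely related to HSPA6, could share probe sequence with it, and this was not tested. Its 1 probe had log2 values of 4.89 and 5.11 in the IPA-3 arrays, against 5.11 and 5.18 in DMSO 1 and 2, a log2 change of -0.14 (limma adjusted p = 0.899). With FRAX-597 its change was 0.15. The probe of HSPA7 was thus not higher in the arrays in which that of HSPA6 was higher. At 4.89 to 5.18 it lay under the medians of these arrays over all probes, 5.51 to 5.55, and this low level limits what its change can show.

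HSPA1A and HSPA1B are the main inducible HSP70 genes. Over their 10 probes the log2 values were 11.86 to 12.32 in IPA-3 1 and 11.78 to 12.28 in IPA-3 2, against 11.09 to 11.74 in DMSO 1 and 11.03 to 11.68 in DMSO 2. The changes of the 10 probes ran from 0.59 to 0.76, with limma adjusted p from 0.567 to 0.672. As the proteins encoded are almost the same, probes of 1 gene may also read the other. Probe sequences were not used here and this was not tested, so the 10 probes are not taken as independent readings.

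Among these probes HSPA1A 17026318, whose values 2 others repeat, had 11.99 and 11.96 in the IPA-3 arrays, against 11.32 and 11.26 in DMSO 1 and 2. Its log2 change was 0.69 (SE 0.25, 95% confidence interval 0.11 to 1.26, limma adjusted p = 0.633). HSPA1B 17028007 had 12.32 and 12.28 in the IPA-3 arrays, against 11.74 and 11.68 in DMSO 1 and 2. Its log2 change was 0.59 (SE 0.24, 95% confidence interval 0.03 to 1.16, limma adjusted p = 0.672). Within either group the arrays of these probes lay within 0.06 of each other, and the groups did not overlap. The largest change was that of HSPA1A 17006863, 0.76.

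With FRAX-597 the 10 probes had log2 values of 9.46 to 9.98 in FRAX-597 1 and 10.23 to 10.83 in FRAX-597 2, against 10.80 to 11.31 in DMSO 3 and 10.56 to 11.20 in DMSO 4. Both FRAX-597 arrays were below both DMSO arrays for each probe. The changes ran from -0.92 to -0.83, with limma adjusted p from 0.371 to 0.422. They ranked between 20 and 38 from the lowest of 16098 changes.

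The replicates disagreed on the size. FRAX-597 2 lay above FRAX-597 1 by 0.78 to 0.90 for the 10 probes, whereas the median gap of named probes between these arrays was 0.191 and 5.45% had a gap of at least 0.78. HSPA1A 17026318 had 9.76 and 10.60 in the FRAX-597 arrays, against 11.15 and 10.92 in DMSO 3 and 4. Its log2 change was -0.85 (95% confidence interval -1.42 to -0.27, limma adjusted p = 0.422). HSPA1B 17028007 had 9.98 and 10.83 in the FRAX-597 arrays, against 11.31 and 11.20 in DMSO 3 and 4, with a log2 change of -0.85 (95% confidence interval -1.42 to -0.28, limma adjusted p = 0.408). Without FRAX-597 2 the 10 changes ran from -1.37 to -1.22. Without FRAX-597 1 they ran from -0.49 to -0.43. In each case 1 FRAX-597 array was left, with no spread of its own, so only the sizes are given. The direction held with either array, as it must where groups do not overlap, and the size differed with the array kept.

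BAG3, the cochaperone, had log2 values of 8.87 and 9.02 in the IPA-3 arrays, against 8.43 and 8.45 in DMSO 1 and 2. The IPA-3 arrays were above both DMSO arrays, which differed by 0.017. The means were 8.95 ± 0.11 with IPA-3 and 8.44 ± 0.012 with DMSO (SD, n = 2 each), a log2 change of 0.51 (SE 0.15, 95% confidence interval 0.17 to 0.86, limma adjusted p = 0.537). BAG3 had 8.46 and 8.26 in the FRAX-597 arrays, against 8.87 and 8.52 in DMSO 3 and 4. Both FRAX-597 arrays were the lower ones, but FRAX-597 1 and DMSO 4 were only 0.06 apart. The log2 change was -0.34 (SE 0.15, 95% confidence interval -0.68 to 0.01, limma adjusted p = 0.683). Without DMSO 3 it was -0.16, without DMSO 4 it was -0.51, and against all 4 DMSO arrays it was -0.21.

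**Figure D2:**
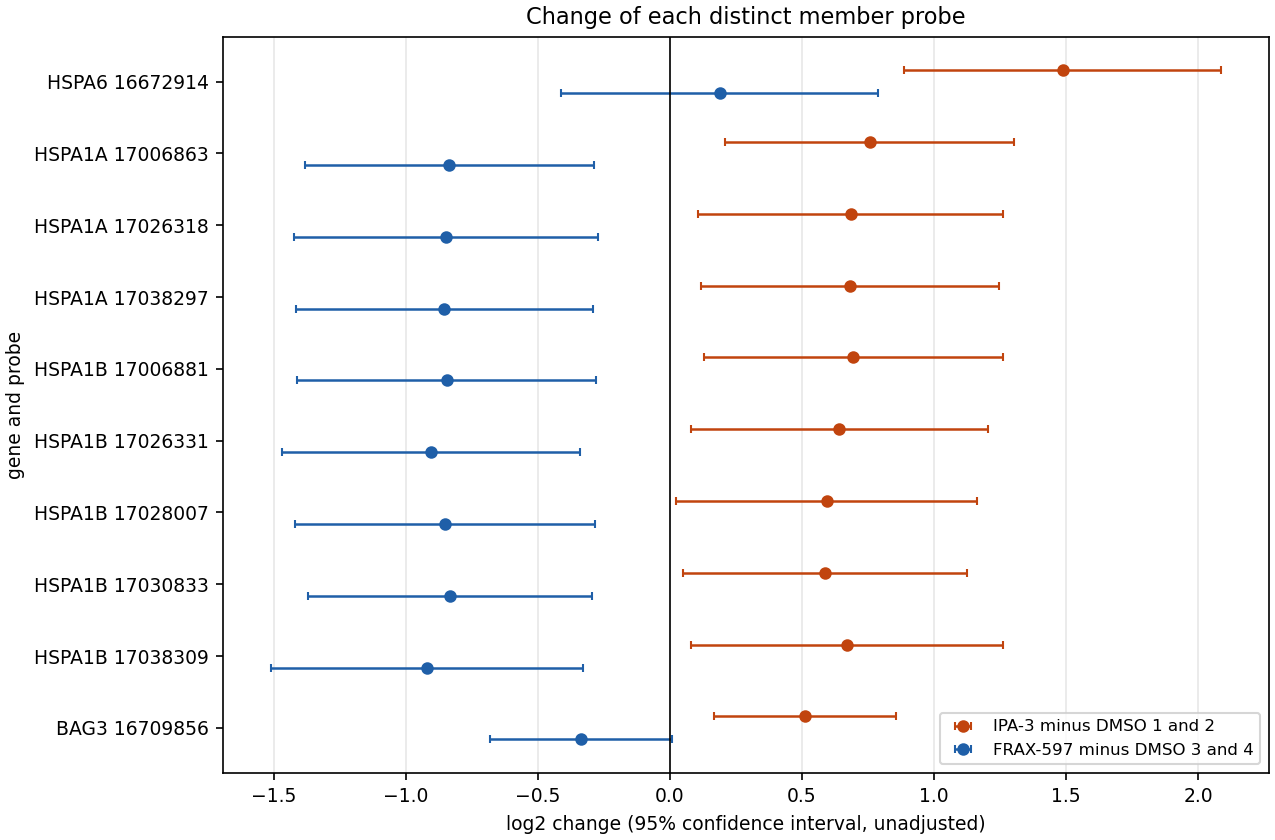
Log2 change (x axis, with the unadjusted 95% confidence interval as bars) of each distinct probe (y axis) with IPA-3 against DMSO 1 and 2 and with FRAX-597 against DMSO 3 and 4. All IPA-3 intervals lie above 0, the FRAX-597 intervals of HSPA1A and HSPA1B lie below 0, and those of HSPA6 and BAG3 include 0.

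These counts stand against the following background over all named probes. With IPA-3, 0 of the 12 probes passed an adjusted p under 0.05, as did 0.0311% of named probes (5). All 12 were higher at an unadjusted p under 0.05, against 3.32% of named probes, and all 12 were higher with no overlap, against 19.9%. The count of 12 at an unadjusted p under 0.05 was 4 after quantile normalization. Over all named probes the count in either direction was 1008 after it, against 1160 in the main fit. Leaving out 1 of these 4 arrays leaves a group of 1 array, with no spread of its own, so those counts are not given. With FRAX-597, 0 of 12 passed the adjusted threshold, against 0.143% (23 probes). Of the 12, 10 were lower at an unadjusted p under 0.05, against 3.48% of named probes, and 11 were lower with no overlap, against 17.6%. The 10 probes of HSPA1A and HSPA1B dominate each of these counts. Counted by distinct profile, the 4 genes gave 1, 3, 5 and 1 readings for HSPA6, HSPA1A, HSPA1B and BAG3.

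The compounds were next compared by the FRAX-597 change minus the IPA-3 change. This difference was negative for all 12 probes. For the 10 probes of HSPA1A and HSPA1B it ran from -1.59 to -1.42, with limma adjusted p from 0.480 to 0.543, and between 0.0435% and 0.130% of named probes had a difference as low. For HSPA1A 17026318 it was -1.53 (SE 0.35, 95% confidence interval -2.35 to -0.72), and for HSPA1B 17028007 it was -1.45 (95% confidence interval -2.25 to -0.64). For BAG3 it was -0.85 (SE 0.21, 95% confidence interval -1.34 to -0.36, limma adjusted p = 0.563). At an unadjusted p under 0.05 all 12 were lower, against 2.88% of named probes. At the adjusted threshold 0 of 12 passed, against 0.0124% (2 probes). All probes but that of HSPA6, 11 of 12, had both IPA-3 arrays above and both FRAX-597 arrays below their own DMSO arrays, as did 3.12% of named probes. The doses differed in mass (6 and 2 µg/mL), and no dose series is given here.

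**Figure D3:**
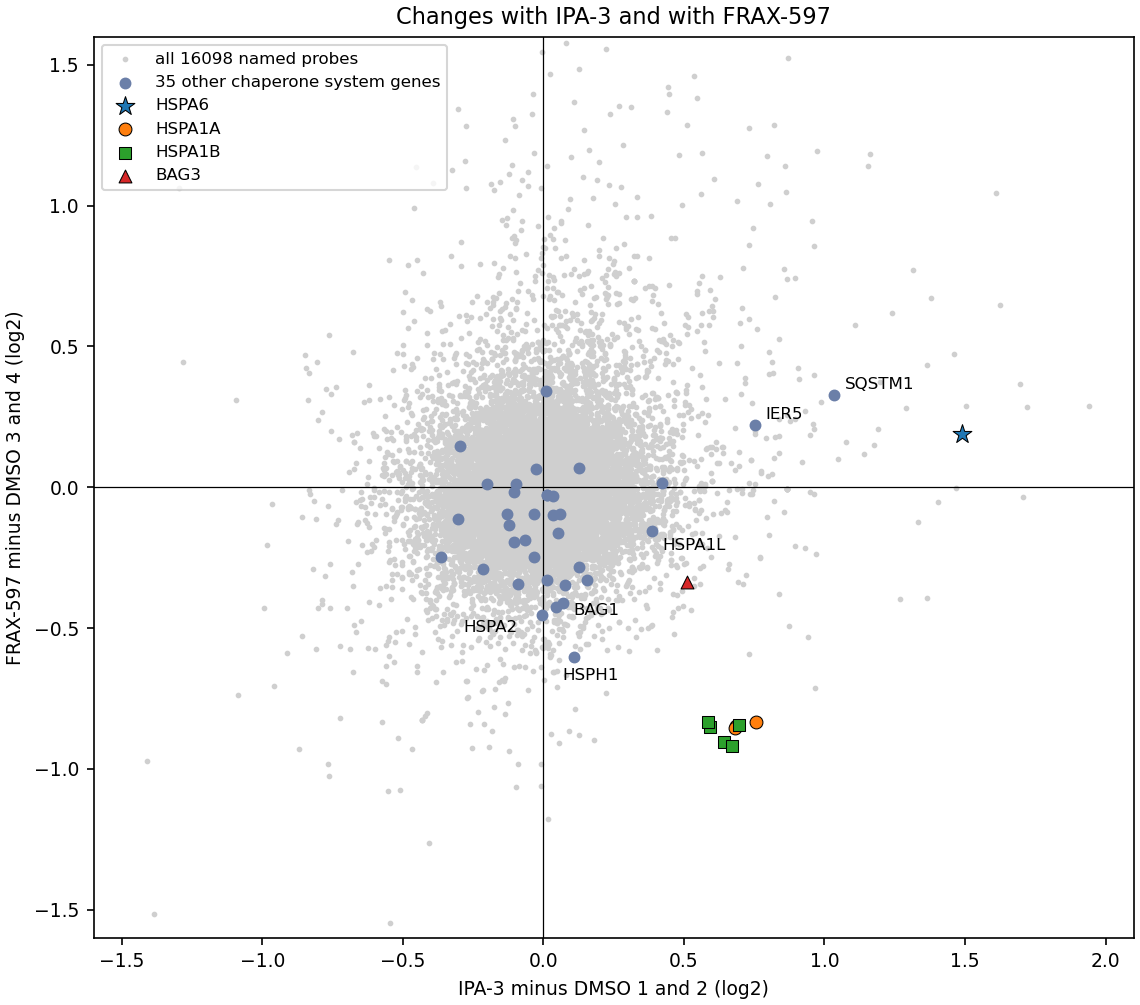
Log2 change with IPA-3 (x axis) against log2 change with FRAX-597 (y axis) for all named probes in grey, 35 other genes of the chaperone system in blue and the probes of HSPA6, HSPA1A, HSPA1B and BAG3 as coloured shapes. The 10 probes of HSPA1A and HSPA1B form a group at the lower right, BAG3 lies between them and the centre, and HSPA6 lies at the right near 0 on the y axis. 29 named probes lie outside the axes.

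The solvent controls also differed for these genes. DMSO 3 and 4 minus DMSO 1 and 2 gave a log2 difference of -0.32 for HSPA6, -0.61 to -0.26 for HSPA1A and HSPA1B and 0.26 for BAG3, where the median of named probes was 0.48. None of these differences passed an adjusted p under 0.05 (limma adjusted p = 0.307 for HSPA6, 0.0503 to 0.392 for HSPA1A and HSPA1B and 0.166 for BAG3). These p-values set the deposited values against 0 and do not take out the median shift, so they do not test the differences relative to it. Relative to that median the differences were -0.80, -1.10 to -0.74 and -0.23. After quantile normalization of the 8 arrays they were -0.79, -0.66 to -0.32 and -0.08. HSPA1A and HSPA1B thus had lower values in the DMSO arrays of the FRAX-597 set than in those of the IPA-3 set on each of these scales. BAG3 turned from higher to lower values once the shift was taken out. The part of this difference in the contrast between compounds was not tested.

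Centred on the DMSO pair of their own set, HSPA1A and HSPA1B followed each other over the 8 arrays (Pearson r = 0.997, probes of highest mean). BAG3 had r = 0.824 with HSPA1A and 0.791 with HSPA1B, and HSPA6 had 0.648 with HSPA1A, 0.611 with HSPA1B and 0.743 with BAG3. These values describe 8 arrays in 4 groups and share the centring. Among 12073 probes compared, those most like HSPA6 were FOXA3 (r = 0.966), CHAT (0.959) and CYTOR (0.957), then DKFZP434A062 and UNKL. After each other's probes, those most like HSPA1A and HSPA1B were led by UBE3A (r = 0.985 and 0.989), with KLHDC8A, LRFN3 and L3MBTL3 next for HSPA1A and ITLN1, KLHDC8A and ADORA1 for HSPA1B. Those most like BAG3 were SYCN (r = 0.990), PHAX, DESI1, PRPH and GALNT9 (r = 0.983). UBE3A differed in size, with changes of 0.10 with IPA-3 and -0.10 with FRAX-597.

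HSPA1L, another HSP70 gene beside HSPA1A on the chromosome and read the opposite way, starts 260 bases from the start of HSPA1A in the RefSeq table. It encodes a chaperone best known from the testis. Its 5 probes, 3 of them identical, had IPA-3 changes of 0.39, 0.54 and 0.60 (limma adjusted p = 0.714, 0.660 and 0.537). With FRAX-597 they had -0.16, 0.09 and 0.02. The identical probes had 7.36 and 7.33 in the IPA-3 arrays, against 6.75 and 6.75 in DMSO 1 and 2, and 7.81 and 7.56 in the FRAX-597 arrays, against 7.91 and 7.41 in DMSO 3 and 4. HSPA1L was thus higher with IPA-3 and overlapped its controls with FRAX-597 in these probes, and no change of it passed the adjusted threshold.

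The rest of the chaperone system was measured through 7 lists with 88 genes, of which 35 had a named probe. With IPA-3, 19 were above 0 and 16 below, with a median of 0.01, while 44.4% of all genes were above 0 with a median of -0.02. None passed the adjusted threshold in limma. At an unadjusted p under 0.05, 3 were higher and 2 lower, where 3.07% of all genes were higher and 4.05% lower. With FRAX-597, 9 were above 0 and 26 below, with a median of -0.11, while 54.7% of all genes were below 0 with a median of -0.02. None passed the adjusted threshold, and at an unadjusted p under 0.05, 0 were higher and 7 lower, where 3.59% of all genes were lower. The lists overlap, and a gene is counted once in these totals but may recur in the lists below. HSPA1L, HSPA4L, HSPB1, HSPB8, HSPD1, HSPH1, BAG1, STIP1 and CHORDC1 are among the target genes of HSF1 and also in another list. The counts of that list thus largely repeat genes of the others. HSPH1, BAG1, STIP1 and CHORDC1 are its genes lower at a limma unadjusted p under 0.05 with FRAX-597.

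Among target genes of HSF1, 13 of 26 were measured besides the 4 genes above. With IPA-3, 10 were above 0, with a median of 0.05, against 44.4% of all genes above 0. 1 was higher at an unadjusted p under 0.05, against 3.07% of all genes. That was IER5, an immediate early gene whose product binds HSF1, with a change of 0.75 (limma adjusted p = 0.525). With FRAX-597, 12 of 13 were below 0, with a median of -0.16, against 54.7% of all genes below 0. Of the 13, 4 were lower at an unadjusted p under 0.05, against 3.59% of all genes. HSPH1, the HSP110 that exchanges nucleotide on HSP70, had 10.51 and 10.67 in the FRAX-597 arrays, against 11.38 and 11.00 in DMSO 3 and 4. Its change was -0.60 (limma adjusted p = 0.314), and 0.11 with IPA-3. 

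Among the HSP70 and HSP110 family, 10 of 13 were measured. By the probe of highest mean, none was past an unadjusted p of 0.05 with IPA-3. Other probes of HSPA1L were past it (limma unadjusted p = 0.037 for 1 probe and 0.0099 for the 3 identical ones). With FRAX-597, HSPH1, HSPA2 (-0.45) and HSPA14 (-0.29) were lower at that level, against 3.59% of all genes. Of the 10, 7 were below 0, against 54.7% of all genes. Of 7 measured BAG proteins and other HSP70 cochaperones, 6 were below 0 with FRAX-597, against 54.7% of all genes, with a median of -0.33. BAG1, a nucleotide exchange factor that guides clients to the proteasome, had -0.42 (limma adjusted p = 0.548), and 0.05 with IPA-3. BAG4 had -0.34 and STIP1, the adaptor between HSP70 and HSP90, had -0.35. With IPA-3, 4 of these 7 were above 0, against 44.4% of all genes, with a median of 0.01. None of the 19 J-domain cochaperones listed had a named probe, and these are not analysed here.

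Of 6 measured small heat shock proteins and BAG3 partners, 5 were below 0 with IPA-3, against 55.6% of all genes. The exception was SQSTM1, the autophagy receptor that takes up BAG3 clients and also a target of NRF2. It had 8.51 and 8.52 in the IPA-3 arrays, against 7.50 and 7.46 in DMSO 1 and 2, a change of 1.04 (limma adjusted p = 0.482), and 0.33 with FRAX-597. HSPB8, the small heat shock protein that binds BAG3, had -0.10 with IPA-3, HSPB1 had -0.03 and HSPB3 had -0.30. In the first 4 arrays HSPB8 had log2 values of 4.13 to 4.37 and HSPB3 of 3.78 to 4.24. The lower quartiles of these arrays over all probes were 4.14 to 4.20. Such low values limit what the changes of HSPB8 and HSPB3 can show. Of 7 HSP90 genes and cochaperones, FKBP5 (0.42) and TRAP1 (-0.36) were past an unadjusted p of 0.05 with IPA-3, and CHORDC1 (-0.28) with FRAX-597. At that level 3.07% of all genes were higher and 4.05% lower with IPA-3, and 3.59% were lower with FRAX-597. HSPD1, the 1 chaperonin measured, had 0.05 with IPA-3 and -0.16 with FRAX-597. HSF1 itself had -0.10 with IPA-3 and -0.06 with FRAX-597, and HSF2 is not analysed here.

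Other stress programmes were read beside these genes. Of 9 measured target genes of the oxidant sensor NRF2, 8 were above 0 with IPA-3, 7 of them at an unadjusted p under 0.05, against 44.4% and 3.07% of all genes. SRXN1 (1.94) and OSGIN1 (1.72) rose past the threshold (limma adjusted p = 0.0126 for both), whereas TXNRD1 had 0.96 (adjusted p = 0.176). With FRAX-597, 7 of 9 were above 0, against 45.3% of all genes, with a median of 0.05, and 0 of 9 were past either threshold in limma. SRXN1 had 0.29, OSGIN1 0.29 and TXNRD1 0.22 with FRAX-597. Of 6 measured genes of endoplasmic reticulum stress, 6 were below 0 with IPA-3, with a median of -0.24, against 55.6% of all genes below 0, and 2 were lower at an unadjusted p under 0.05, against 4.05%. With FRAX-597, 3 of these 6 were above 0 and 3 below, with a median of -0.01, while 45.3% of all genes were above 0. The highest change was that of XBP1, a transcription factor of that response, 1.08 (limma adjusted p = 0.323).

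The choice of arrays and controls moved sizes. Where groups did not overlap, leaving out 1 array could not turn a direction. Fitted on the first 4 arrays alone, 1 probe, HSPA1A 17006863, passed the threshold with IPA-3 (limma adjusted p = 0.0448), with a change of 0.76 as before. Over 17 alternatives the IPA-3 change of HSPA6 ran from 1.11 to 1.87, with limma adjusted p from 0.0643 to 1. The changes under each array left out, and under other fits, are plotted by setting.

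**Figure D4:**
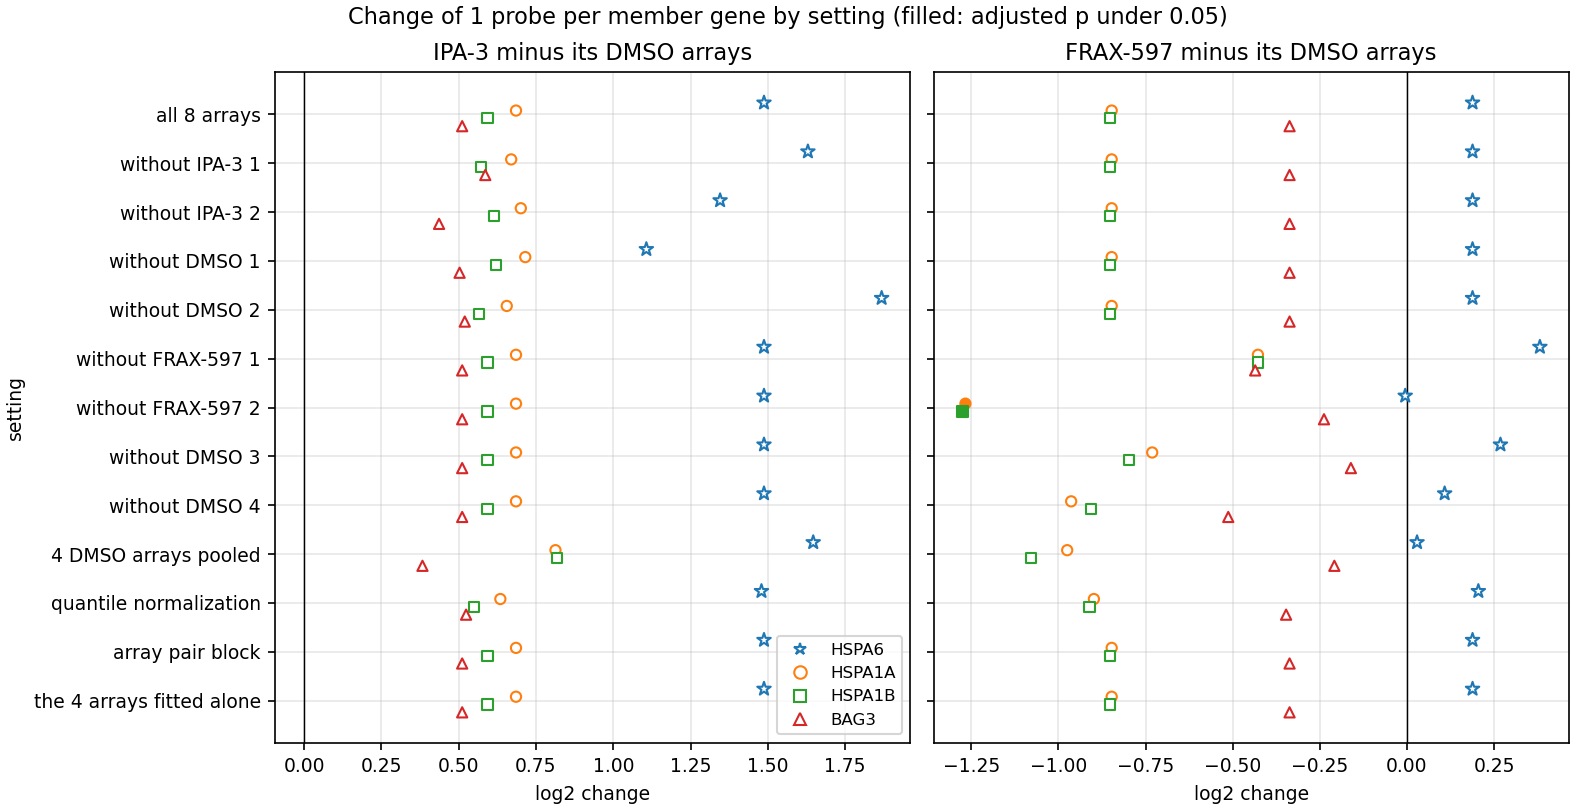
Log2 change (x axis) of 1 probe per gene, HSPA1A 17026318 and HSPA1B 17028007 among them, under each setting (y axis), with IPA-3 on the left and FRAX-597 on the right. Filled symbols have a limma adjusted p under 0.05. Where 1 array is left out, its group has 1 array and no spread of its own, so filled symbols there are not taken as calls. All IPA-3 values lie above 0. Without FRAX-597 2 the FRAX-597 changes of HSPA1A and HSPA1B are -1.27 and -1.28, and without FRAX-597 1 they are both -0.43.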

How the data were processed

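Labelled RNA of 8 THP-1 samples was hybridised to 1-colour whole-transcript arrays, per the labels' protocols. The deposited values are log2 expression values processed by the authors with Affymetrix Expression Console and Transcriptome Analysis Console, per the submitters' processing notes, with no version. The summarisation and normalization, the arrays normalized together and the array's genome build are not given in the sources used here. Unstated joint processing could set the scale of each array set. No values were missing. The platform annotation gave 16098 probes 1 gene symbol, 0 several and 37519 none. All 16098 matched RefSeq and 0 symbols changed.

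Groups came from the labels. Each probe was its own feature in limma 3.58.1 (R 4.3.3; lmFit, eBayes), in 1 fit of 4 means over 8 arrays: IPA-3, DMSO 1 and 2, FRAX-597, and DMSO 3 and 4. Contrasts were each compound minus its DMSO pair and the difference of these changes, with Benjamini-Hochberg adjustment over 16098 probes and a threshold of 0.05. The spread is shared by all arrays, since 2 arrays against 2 alone leave 2 residual degrees of freedom. Such a comparison also allows no exact permutation p under 0.333. Lists used 1 probe per gene, that of highest mean (14884 genes), while the text gives all probes of the 4 genes. The rule for each list of the chaperone system took the 3 genes of smallest p per compound, of which the text names those past an unadjusted p of 0.05 and some others. Probes most alike were ranked by Pearson correlation of values centred on the DMSO pair, among probes at or above the lower quartile of means (5.39). Motifs were searched in 250 bases before each start (Python 3.11.15; pairwise alignment with Biopython 1.88). The genes, lists, contrasts and array pairs were chosen with earlier results of these data known. Alternatives were pooled controls, other feature sets, quantile or median scaling, a filter on dim probes, array pairs as a block, an intensity trend, 4 arrays alone, and each array left out.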

Additional observations from a re-analysis of the deposited data

Results flagged for a closer look

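3 results were singled out because every array of FRAX-597 lay on one side of its DMSO pair and every array of IPA-3 on the other. The FRAX-597 change minus the IPA-3 change was -1.53 for HSPA1A 17026318, -1.45 for HSPA1B 17028007 and -0.848 for BAG3. The limma adjusted p-values of these differences were 0.524, 0.543 and 0.563, so none passed the threshold, and 3.12% of named probes had the same arrangement of arrays. Compound and array set cannot be told apart in this difference. The probes of HSPA1A and HSPA1B are not taken as independent readings.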

How the results depend on the processing

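The number of named probes past the threshold depended on the setting. With IPA-3 it was 5, against 0 with the 4 DMSO arrays pooled (limma, 873 at an unadjusted p under 0.05), 0 over every probe of the table (limma, 3416 unadjusted), 2 after quantile normalization, 2 with dim probes left out, 80 with array pairs as a block, 92 with 4 arrays fitted alone, and 0 to 21 with 1 array left out (limma, 534 to 1479 unadjusted). With FRAX-597 it was 23, against 5 with pooled DMSO, 6 over every probe, 200 with the block, 0 with 4 arrays alone (limma, 641 unadjusted) and 2 to 235 with 1 array left out. For the difference it was 2, against 29 with the block and 0 to 42 with 1 array left out. The cause of these shifts was not tested. Counts with 1 array left out come from fits in which a group has 1 array, with no spread of its own, and are not taken as results.

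Of the 12 probes of the 4 genes, 0 passed with IPA-3, against 1 with 4 arrays alone, where 92 named probes passed. With FRAX-597, and likewise for the difference, 0 passed, against 0 to 10 with 1 array left out, the 10 being those of HSPA1A and HSPA1B without FRAX-597 2. The FRAX-597 change of HSPA6 turned to -0.005055 without FRAX-597 2, and its range with 1 array left out was -0.005055 to 0.381. Directions of the other changes of the 4 genes, 1 probe each, were the same under every alternative run. This is a weak check. Where groups do not overlap, leaving out 1 array cannot turn a direction, and several other alternatives leave the change itself unaltered.

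The labels pair no compound array with a DMSO array, and the numbers 1 and 2 of the compounds follow accession order. Array pairs taken from the values themselves (r = 0.660 between the array differences of the second set, -0.063 in the first) gave HSPA1A and HSPA1B limma adjusted p from 0.0859 to 0.129 with FRAX-597. They favour calls by construction. With 2 arrays a group, unknown culture of origin and unstated normalization, the sizes are uncertain.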
